A study of Rattus norvegicus with 4 samples.

Results

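Mitochondria carry a small circular genome of their own, and the genes that encode its mRNAs, together with the nuclear genes that copy, transcribe, process and translate it, were examined in β-cells depleted of Tbk1. The members were taken by gene name from a list of known functions, which was drawn up with earlier results of these data known. Of 47 names, 46 were found among the 15172 genes listed, and all 46 were among the 13953 genes with enough counts to test. They comprise 13 mRNAs of the mitochondrial genome and 33 nuclear genes. The nuclear genes divide into 5 for mtDNA copying, 7 for transcription, 13 for RNA processing and stability, 5 translation factors and 3 regulators. Fastkd5 was not found under that name.

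RNA sequencing was performed on INS-1 832/13 β-cells, an insulin-secreting clonal line from a rat insulinoma. In 2 control samples (siScramble, replicates 2 and 3) the cells received a non-targeting siRNA, and in 2 samples (siTbk1, replicates 2 and 3) they received a pool of siRNAs against Tbk1, a serine/threonine kinase, in both cases for 36 h. Libraries were made from polyadenylated RNA with a stranded kit and held between 38428926 and 47759013 estimated counts. Nothing in the labels says that the 2 samples of a group came from separate cultures, so p-values measure the spread between these samples, which may be technical.

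Transcription of the mitochondrial genome produces long precursors from both strands, which are cut at the tRNAs that punctuate them and then polyadenylated. Every protein of the copying, transcription and processing machinery is made from a nuclear gene and imported. In β-cells, the respiratory chain that these mRNAs help to build supplies the ATP that couples glucose to insulin secretion.

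Levels are given in CPM, counts scaled to library totals that were adjusted with TMM factors. Fold changes are siTbk1 over siScramble on the log2 scale with their standard error (SE), and adjusted p-values come from the quasi-likelihood test of edgeR, corrected over all genes tested by the Benjamini-Hochberg procedure. A gene passed the test at an adjusted p under 0.05, and it was called when it also differed by at least 1.5-fold. Tbk1 mRNA stood at 53.7 and 52.5 CPM in the siScramble samples and at 11.8 and 13.3 CPM in the siTbk1 samples (log2 fold change −2.08, SE 0.076, adjusted p = 3.74e-08), so the targeted gene was low in both samples labelled siTbk1. Of 17 β-cell markers, 16 were listed, of which 4 passed in the higher direction (Iapp, Pcsk1, Nkx6-1 and Slc30a8, with log2 fold changes from 0.15 to 0.38) and 6 in the lower. Of these 6, Ins1 (−0.64) and Ins2 (−0.67) were called. The summed level of the 16 was 21181 and 22079 CPM in the siScramble samples and 18484 and 16774 CPM in the siTbk1 samples, of which Ins1 made up 10384 and 11092 CPM and 7520 and 6244 CPM. Of 5 markers of other islet cells, only Gcg, which encodes glucagon, was listed, at 1389 and 1313 CPM and at 815 and 878 CPM in the same order. Of 9 markers of acinar, ductal, fibroblast, endothelial and blood cells, only Sox9 was listed, under 0.4 CPM in every sample. The part of these differences in the results on the mitochondrial genes was not tested.

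All 13 mRNAs of the mitochondrial genome rose in siTbk1-treated cells, by a median of 0.45 on the log2 scale, where the median over all genes tested was 0.0071. Their log2 fold changes lay between 0.35 for Mt-nd6 and 0.58 for Mt-nd5, and the largest adjusted p was 0.0123. Over all genes, 24.4% passed in the higher direction. None of the 13 reached the limit of 1.5-fold, so that 0 were called higher or lower, against 4.81% and 6.18% of all genes. In each of the 13, both siTbk1 samples lay above both siScramble samples, which held for 38.7% of all genes. The 12 mRNAs of the heavy-strand transcript share a precursor, so the 13 are not independent measurements.

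The mRNAs for the subunits of cytochrome c oxidase, complex IV of the respiratory chain, together held the largest part of these counts. Mt-co1, which encodes the catalytic subunit (mitochondrial chromosome, listed start 5323 and stop 6868, + strand, rn6), stood at 20319 and 19172 CPM in siScramble replicates 2 and 3 and at 26250 and 27522 CPM in siTbk1 replicates 2 and 3. Its log2 fold change was 0.45 (SE 0.060, adjusted p = 0.000102), and the groups did not overlap. Mt-co2 was measured at 5517 and 5038 CPM against 7214 and 7381 CPM (log2 fold change 0.47, adjusted p = 7.17e-05). Mt-co3 was measured at 8996 and 8633 CPM against 11835 and 12439 CPM (0.46, adjusted p = 6.03e-05). The siTbk1 samples were thus higher by similar amounts for all 3 subunits.

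Complex III has a single subunit from the mitochondrial genome, cytochrome b. Its mRNA, Mt-cyb, rose from 7366 and 7148 CPM to 9337 and 9694 CPM (log2 fold change 0.39, SE 0.055, adjusted p = 0.000141). The mRNAs for ATP synthase subunits lie next to each other and overlap on the same strand, from 7758 to 7962 for Mt-atp8 and from 7919 to 8600 for Mt-atp6. Mt-atp6, which forms part of the proton channel, rose from 4799 and 4900 CPM to 6074 and 6702 CPM (0.40, adjusted p = 0.000219). Mt-atp8 rose from 498 and 572 CPM to 668 and 813 CPM (0.47, SE 0.086, adjusted p = 0.000776). Mt-atp8 had the widest spread within groups of this pair, with replicate 3 above replicate 2 in both groups. Without siTbk1 replicate 2, its log2 fold change was 0.59 and passed the fold limit.

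Complex I, the NADH dehydrogenase, takes 7 subunits from the mitochondrial genome. Mt-nd1 stood at 3370 and 3328 CPM in siScramble samples and at 4309 and 4596 CPM in siTbk1 samples (log2 fold change 0.41, adjusted p = 0.000102). Mt-nd2 stood at 4039 and 3999 CPM against 5174 and 5686 CPM (0.43, adjusted p = 0.000111), and Mt-nd3 at 863 and 853 CPM against 1109 and 1165 CPM (0.41, adjusted p = 7.25e-05). For these 3 genes the siScramble samples lay close together and both siTbk1 samples lay above them. Mt-nd4l and Mt-nd4 overlap on the same strand and are read from a shared mRNA. Mt-nd4l rose from 304 and 301 CPM to 419 and 433 CPM (0.49, adjusted p = 1.75e-05). Mt-nd4 rose from 3284 and 3160 CPM to 4259 and 4805 CPM (0.49, adjusted p = 7.94e-05). Mt-nd4l was the only one of the 13 with reads split between genes, so its count is less certain.

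Mt-nd5 showed the largest difference of the 13. It stood at 2139 and 2022 CPM in siScramble samples and at 2979 and 3247 CPM in siTbk1 samples (log2 fold change 0.58, SE 0.060, adjusted p = 1.75e-05), just under the fold limit. The values without siScramble replicate 2 (0.62) and without siTbk1 replicate 2 (0.63) passed that limit. Mt-nd6 is the only mRNA encoded on the light strand and is known to lack a poly(A) tail. The part of the selection of polyadenylated RNA in its level was not tested. Mt-nd6 stood at 7.47 and 7.57 CPM against 9.29 and 9.96 CPM (log2 fold change 0.35, SE 0.10, adjusted p = 0.0123). Without siTbk1 replicate 3 its adjusted p was 0.0712. The genes of Mt-nd5 (listed stop 13566, + strand) and Mt-nd6 (listed start 13543, − strand) overlap at their ends, and the setting used for strand in the counting is not given in the sources used here.

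**Figure D1:**
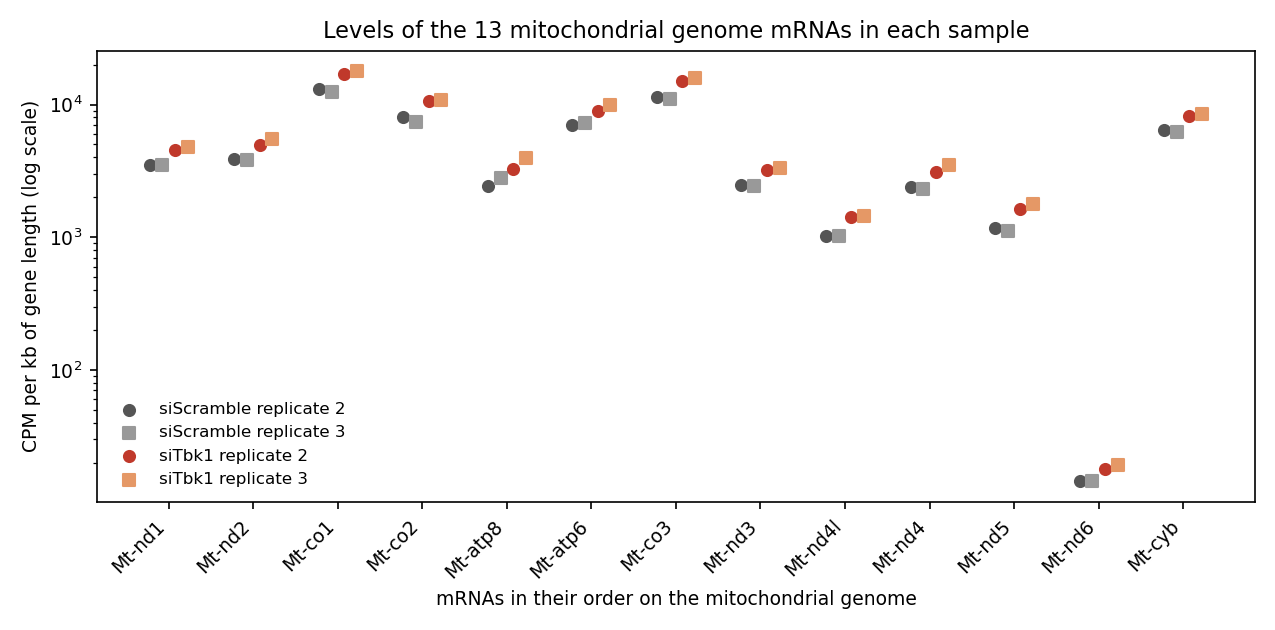
Level of each of the 13 mitochondrial genome mRNAs in CPM per kb of gene length (log scale), in their order on the mitochondrial genome, with 1 point for each of the 2 siScramble samples (grey) and 2 siTbk1 samples (red and orange). Both siTbk1 points lie above both siScramble points for every mRNA, and Mt-nd6 lies far below the others, between 14.4 and 19.2 CPM per kb.

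Values per kb of listed gene length were set beside each other for the 13 mRNAs. Mt-nd4l and Mt-nd4 share an mRNA, yet in siScramble samples they stood at 1025 and 1014 against 2383 and 2293 CPM per kb. Such values therefore do not measure the level of an mRNA alone, and the order below holds for counts per kb only. Mt-co1 was highest, at 13152 and 12409 CPM per kb in siScramble samples and 16991 and 17814 CPM per kb in siTbk1 samples. Mt-co3 followed in each sample, at 11475 and 11012 CPM per kb in siScramble samples and 15095 and 15866 CPM per kb in siTbk1 samples. Mt-co2, Mt-atp6 and Mt-cyb came next in that order in both groups, with siScramble levels between 6254 and 8066 CPM per kb. Mt-atp8 and Mt-nd3 could not be ordered in siScramble samples, since the levels of Mt-nd3 (2480 and 2452 CPM per kb) lay within the spread of Mt-atp8 (2440 and 2802 CPM per kb). In siTbk1 samples Mt-nd3 (3186 and 3348) and Mt-nd4 (3091 and 3487 CPM per kb) also overlapped. The lowest heavy-strand values per kb were those of Mt-nd5 (1169 and 1105) and Mt-nd4l (1025 and 1014 CPM per kb) in siScramble samples. These 2 genes kept this order in siTbk1 samples.

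The 13 mRNAs together took 6.23% and 6.04% of all counts in the siScramble samples and 7.84% and 8.30% in the siTbk1 samples. The difference was 1.94 percentage points, larger than the spread within either group (SD 0.135 and 0.321), and the exact permutation test over samples gave p = 0.333, the smallest value that 2 against 2 samples allow (two-sided). In RNA from whole cultures, more RNA of this kind per cell and more cells rich in it cannot be told apart. A share is also relative, so that less of the other RNA would raise it too, which was not tested. Within the 13, shares differed far less between groups. Mt-co1 held between 32.4% and 33.0% of their counts in all 4 samples, with the groups overlapping. Mt-nd5 held 3.48% and 3.42% in siScramble samples and 3.74% and 3.84% in siTbk1 samples, so that its groups stood apart. This was not particular to Mt-nd5. Groups also stood apart for Mt-co3, Mt-nd4 and Mt-nd4l, with higher shares in siTbk1 samples. They did so with lower shares for Mt-nd1, Mt-nd3, Mt-nd6 and Mt-cyb (11.98% and 12.09% against 11.72% and 11.47%).

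Ratios within a library do not depend on its scaling. The ratio of Mt-nd5 to Mt-cyb, its heavy-strand neighbour, was 0.290 and 0.283 in siScramble samples and 0.319 and 0.335 in siTbk1 samples. The ratio of Mt-nd5 to Mt-nd1, near the start of the transcript, was 0.635 and 0.607 against 0.691 and 0.706. Both ratios were higher in both siTbk1 samples (exact permutation test, two-sided p = 0.333 for each). Mt-nd5 had the largest log2 fold change of these mRNAs (0.58, against 0.39 for Mt-cyb and 0.41 for Mt-nd1). The 2 ratios therefore restate that difference and are not separate evidence. The log2 ratio of Mt-nd6 to the sum of the other 12 mRNAs was −13.01 and −12.93 in siScramble samples and −13.07 and −13.05 in siTbk1 samples, a difference of −0.089 (exact permutation test, two-sided p = 0.333). The ratio of Mt-atp8 to Mt-atp6 was 0.104 and 0.117 against 0.110 and 0.121, and its groups overlapped (exact permutation test, two-sided p = 0.667). These 4 ratios and the shares of counts were not adjusted for each other, and none could pass at this sample number.

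The mitochondrial rRNAs, which lie ahead of Mt-nd1 on the heavy-strand transcript, moved in the same direction. The row for the gene at 1094 to 2665 stood at 317 and 293 CPM in siScramble samples and at 425 and 442 CPM in siTbk1 samples (AY172581.24, log2 fold change 0.50, adjusted p = 2.92e-05). The row for the gene at 68 to 1026 stood at 257 and 254 CPM against 372 and 394 CPM (AY172581.9, 0.58, adjusted p = 7.45e-06). In both genes the siTbk1 samples were the higher ones. The ratio of summed mRNA to summed rRNA counts was 107 and 108 in siScramble samples and 100.0 and 101 in siTbk1 samples. Mitochondrial rRNAs are known to carry only short tails, and the part of poly(A) selection in any of these levels was not tested. Replication-dependent histones, a class known to lack a poly(A) tail, were taken by symbol, which gave 10 listed genes. Their summed level was 23.5 and 31.9 CPM in siScramble samples and 24.6 and 25.7 CPM in siTbk1 samples. Hist3h2ba made up the largest part (12.1 and 18.6 against 11.7 and 12.3 CPM), and whether these RNAs lacked a tail was not tested.

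**Figure D2:**
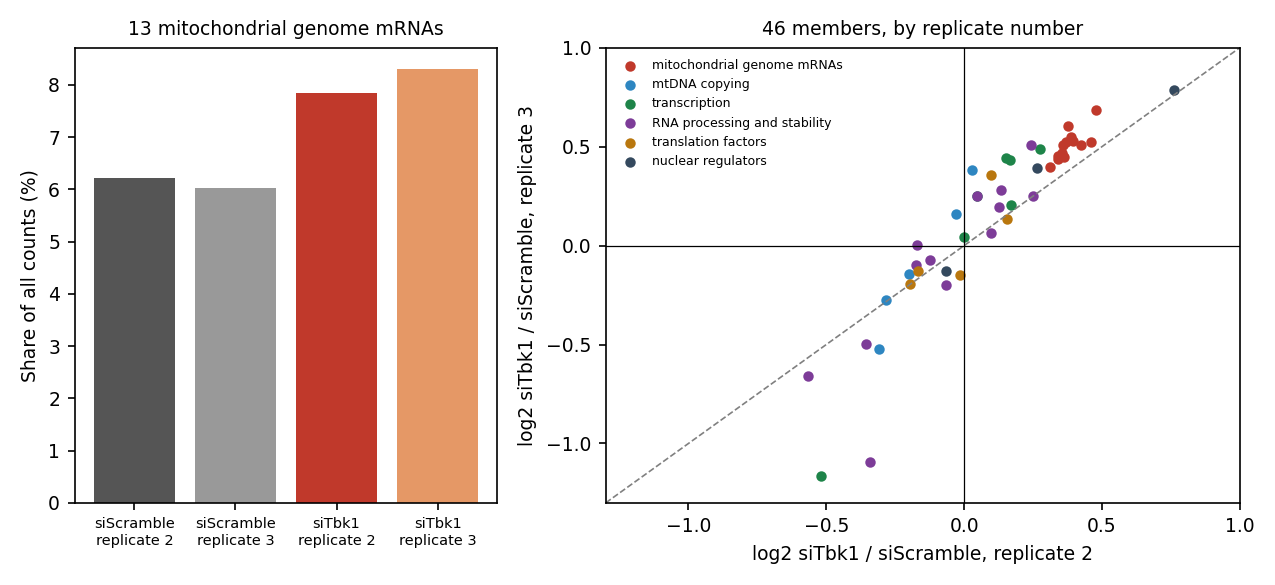
Left, share of all counts (percent) held by the 13 mitochondrial genome mRNAs, 1 bar per sample; it is 6.23% and 6.04% in siScramble samples and 7.84% and 8.30% in siTbk1 samples. Right, log2 ratio of siTbk1 to siScramble for each of the 46 members in replicate 3 against replicate 2 (1 point per gene, coloured by role, dashed line of equal values); the 13 mRNAs (red) lie above 0 on both axes and above the dashed line.

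The nuclear genes did not move as 1 group. Of the 33, 10 passed in the higher direction and 8 in the lower direction (24.4% and 24.8% of all genes), and 15 did not pass. Their median log2 fold change was 0.064. Only Ppargc1a was called higher, and Polrmt, Fastk and Elac2 were called lower, in a table where 4.81% and 6.18% of all genes were called in these directions. In 16 of the 33 both siTbk1 samples lay above both siScramble samples and in 14 they lay below, against 38.7% and 37.9% of all genes. The counts of members that passed depended on single libraries. Without siScramble replicate 3, or without siTbk1 replicate 3, 5 passed in the higher direction. Without siScramble replicate 2, or without siTbk1 replicate 3, 5 passed in the lower direction.

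**Figure D3:**
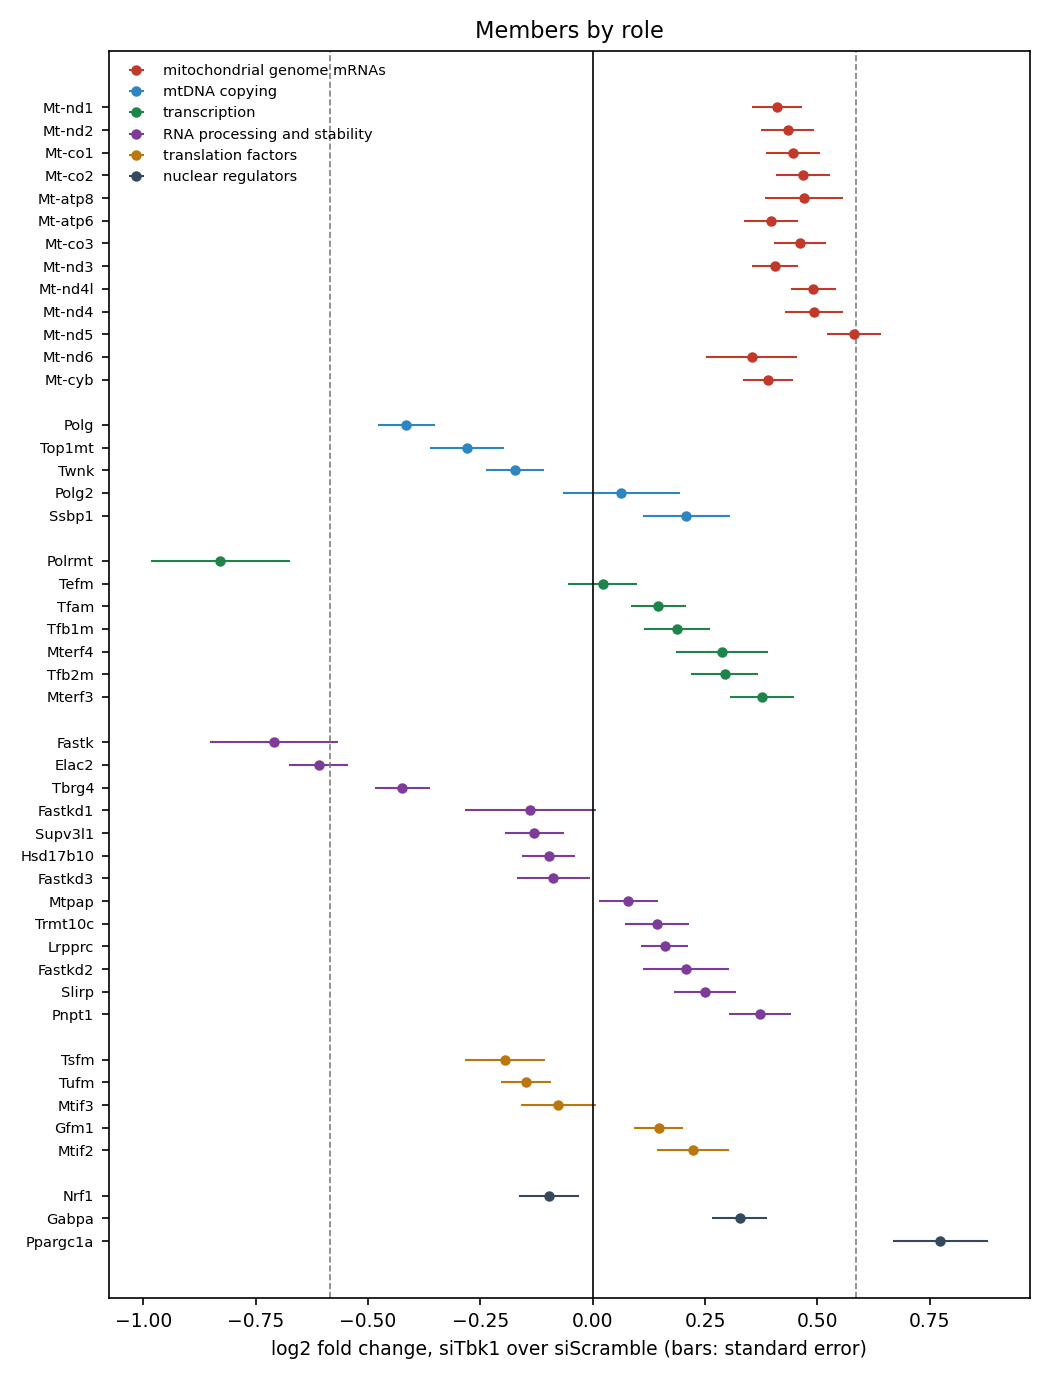
Log2 fold change of siTbk1 over siScramble for the 46 members, grouped and coloured by role, with bars of 1 SE on each side (2 samples per group) and dashed lines at 1.5-fold. The 13 mitochondrial genome mRNAs lie between 0.35 and 0.58, and the nuclear genes spread from −0.83 (Polrmt) to 0.77 (Ppargc1a).

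The promoters of the 4 called nuclear genes, of which 3 fell, are shown. That of Tfam, a member of the transcription list that did not pass, is shown beside them. Sequences are from RefSeq on the assembly GRCr8, 250 bases before to 50 bases after the gene start, written 5′ to 3′ along the gene. Capitals mark matches, on either strand, to CCGGAAG, the core bound by ETS factors such as GABPA, or to TGACGTCA, the cAMP response element (CRE) bound by CREB. The positions are chr7:10609946-10610245 (Polrmt, + strand), chr4:11624477-11624776 (Fastk, + strand), chr10:50131269-50131568 (Elac2, + strand), chr20:17355123-17355422 (Tfam, + strand) and chr14:63634058-63634357 (Ppargc1a, + strand).
Polrmt: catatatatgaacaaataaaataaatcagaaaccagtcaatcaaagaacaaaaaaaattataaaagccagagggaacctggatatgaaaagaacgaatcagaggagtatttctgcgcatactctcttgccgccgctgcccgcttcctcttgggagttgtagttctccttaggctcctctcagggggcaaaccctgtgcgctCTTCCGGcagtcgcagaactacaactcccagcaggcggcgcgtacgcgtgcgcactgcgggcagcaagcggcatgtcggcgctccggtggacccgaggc
Fastk: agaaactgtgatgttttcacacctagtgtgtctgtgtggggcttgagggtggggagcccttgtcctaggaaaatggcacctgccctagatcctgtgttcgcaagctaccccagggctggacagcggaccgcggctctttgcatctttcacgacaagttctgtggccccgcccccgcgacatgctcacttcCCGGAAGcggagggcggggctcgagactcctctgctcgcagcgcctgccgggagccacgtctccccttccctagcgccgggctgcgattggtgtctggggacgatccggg
Elac2: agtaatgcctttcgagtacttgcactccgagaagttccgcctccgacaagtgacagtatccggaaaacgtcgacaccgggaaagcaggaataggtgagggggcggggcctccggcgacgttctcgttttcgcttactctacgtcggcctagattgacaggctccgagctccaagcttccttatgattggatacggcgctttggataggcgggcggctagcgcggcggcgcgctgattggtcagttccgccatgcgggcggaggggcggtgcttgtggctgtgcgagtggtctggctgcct
Tfam: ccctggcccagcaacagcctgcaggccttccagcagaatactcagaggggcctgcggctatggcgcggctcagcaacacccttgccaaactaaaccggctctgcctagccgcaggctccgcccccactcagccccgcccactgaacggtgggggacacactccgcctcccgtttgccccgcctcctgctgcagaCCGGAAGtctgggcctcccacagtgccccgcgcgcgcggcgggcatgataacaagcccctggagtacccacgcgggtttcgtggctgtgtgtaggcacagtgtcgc
Ppargc1a: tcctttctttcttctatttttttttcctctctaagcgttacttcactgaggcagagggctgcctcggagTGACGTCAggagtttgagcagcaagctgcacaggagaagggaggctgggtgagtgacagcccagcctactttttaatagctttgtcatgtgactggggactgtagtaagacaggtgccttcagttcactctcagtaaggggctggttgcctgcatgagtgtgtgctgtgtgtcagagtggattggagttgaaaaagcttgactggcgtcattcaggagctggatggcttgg

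The ETS core began at −49 in Polrmt, −60 in Fastk and −56 in Tfam, counted in bases from the gene start, and the CRE of Ppargc1a began at −181. In Elac2 neither motif was present in this window. Of the 46 members, 28 had a promoter window in the RefSeq table, and 10 of these held the ETS core: Fastk, Gabpa, Mtif2, Polg, Polrmt, Slirp, Ssbp1, Tefm, Tfam and Twnk. Of all 33469 windows, 8.75% held it. These 10 genes included members that passed in each direction and members that did not pass. The CRE was found in 1.83% of all windows and in 1 member. The motif of the factor NRF1, written as GCGCA, any base and then GCGC, was found in 4.25% of all windows and in 1 member, Fastkd3. No match overlapped a match to another motif.

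In the list of 7 transcription genes, 3 passed in the higher direction and 1, Polrmt, in the lower, where 24.4% and 24.8% of all genes did. Polrmt, the RNA polymerase of mitochondria, fell furthest of the 33, from 5.79 and 7.32 CPM in siScramble samples to 4.04 and 3.26 CPM in siTbk1 samples (log2 fold change −0.83, SE 0.15, adjusted p = 0.00088). Both siTbk1 samples were lower, and leaving out any 1 sample gave values between −1.01 and −0.66, all still called. Its promoter is the first of those printed above. Tfb2m, which opens the promoter DNA with the polymerase, rose from 35.0 and 30.6 CPM to 39.4 and 41.2 CPM (0.29, SE 0.075, adjusted p = 0.00633). Without siScramble replicate 3 the value for Tfb2m was 0.20 (adjusted p = 0.057), and some of its reads were split with other genes. Tfam, which packages mtDNA and activates its promoters, did not pass, at 112 and 101 CPM against 115 and 120 CPM (0.15, SE 0.061, adjusted p = 0.0654). Without siScramble replicate 2 it passed, with a log2 fold change of 0.22 (adjusted p = 0.0125), as it did after a correction of each library for the genomic span of genes (0.20, adjusted p = 0.0219).

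Of the remaining transcription genes, Tefm, the elongation factor, stood at 19.3 and 18.3 CPM against 19.3 and 18.9 CPM (log2 fold change 0.022, adjusted p = 0.832), and the groups overlapped. Tfb1m, which methylates the rRNA of the small ribosomal subunit, stood at 24.3 and 22.5 CPM against 27.4 and 25.9 CPM (0.19, adjusted p = 0.052). It did not pass with all 4 samples, and passed without siScramble replicate 2 (0.24, adjusted p = 0.0302) and with upper quartile normalization (0.19, adjusted p = 0.0465). Mterf3, described as a repressor of mitochondrial transcription, rose from 40.5 and 35.4 CPM to 49.0 and 49.8 CPM (0.38, SE 0.072, adjusted p = 0.000976). Mterf4, which takes part in building the mitochondrial ribosome, rose from 10.7 and 9.09 CPM to 11.9 and 12.3 CPM (0.29, adjusted p = 0.0344). Mterf3 passed in all 4 fits with 1 sample left out. Mterf4 passed only without siScramble replicate 2 and otherwise had values between 0.18 and 0.30 with adjusted p-values of at least 0.0551, and it did not pass with DESeq2 (adjusted p = 0.110) or library size alone (adjusted p = 0.0710).

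Among the 5 genes for copying mtDNA, 3 passed in the lower direction, where 24.8% of all genes did. Polg, the catalytic subunit of the DNA polymerase, fell from 92.1 and 101 CPM to 74.4 and 70.2 CPM (log2 fold change −0.42, SE 0.063, adjusted p = 0.000224). Top1mt, the mitochondrial topoisomerase, fell from 16.4 and 15.98 CPM to 13.5 and 13.2 CPM (−0.28, SE 0.082, adjusted p = 0.0136). Twnk, the helicase, fell from 42.6 and 40.1 CPM to 37.1 and 36.3 CPM (−0.17, SE 0.064, adjusted p = 0.0408). All 3 had both siTbk1 samples below both siScramble samples, as did 37.9% of all genes. Polg passed whichever sample was left out. Top1mt did not pass without siScramble replicate 2 (−0.26, adjusted p = 0.0564) or without siTbk1 replicate 3 (−0.26, adjusted p = 0.0659), and Twnk did not pass in 3 of the 4 such fits, where values lay between −0.20 and −0.13. Twnk also did not pass with DESeq2 (−0.18, adjusted p = 0.0848) or after the correction for genomic span (−0.079, adjusted p = 0.334), and Top1mt did not with DESeq2 (−0.29, adjusted p = 0.0516). Ssbp1, the single-stranded DNA-binding protein, stood at 16.5 and 15.6 CPM against 16.8 and 20.4 CPM (0.21, adjusted p = 0.0944), with siTbk1 replicate 3 apart from the other 3 samples, and without siTbk1 replicate 2 it passed (0.33, adjusted p = 0.0117), as it did after the correction for span (0.27, adjusted p = 0.0474). Polg2, the accessory subunit of the polymerase, stood at 4.73 and 4.796 CPM against 4.63 and 5.35 CPM (0.064, adjusted p = 0.715), with overlapping groups.

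RNA processing and stability genes fell in 3 cases, rose in 3 and did not pass in 7. Over all genes 24.8% passed in the lower direction and 24.4% in the higher. Elac2, the RNase that cuts the 3′ end of tRNAs out of the precursor, fell from 67.1 and 64.8 CPM to 45.3 and 41.0 CPM (log2 fold change −0.61, SE 0.066, adjusted p = 2.44e-05). Fastk, the founding member of the FASTK family, has a mitochondrial form known for keeping the Mt-nd6 mRNA stable. It fell from 11.3 and 15.1 CPM to 8.95 and 7.05 CPM (−0.71, SE 0.14, adjusted p = 0.00148). Both genes still passed whichever sample was left out, but their size relied on single samples. Fastk was under 1.5-fold without siScramble replicate 3 (−0.50) and without siTbk1 replicate 3 (−0.55). Elac2 was under it without siScramble replicate 2 (−0.58) and without siTbk1 replicate 3 (−0.54). Tbrg4, another FASTK family protein that stabilises mitochondrial mRNAs, fell from 66.8 and 69.6 CPM to 52.2 and 49.4 CPM (−0.42, SE 0.061, adjusted p = 0.000151).

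Of the other genes in this list, Lrpprc, Slirp and Pnpt1 passed in the higher direction. Lrpprc, which binds mitochondrial mRNAs and promotes their polyadenylation, stood at 377 and 355 CPM in siScramble samples and at 412 and 406 CPM in siTbk1 samples (log2 fold change 0.16, SE 0.052, adjusted p = 0.0237). Its partner Slirp rose from 23.6 and 24.5 CPM to 28.1 and 29.1 CPM (0.25, SE 0.069, adjusted p = 0.0101). The groups were apart for both genes. Lrpprc passed only without siScramble replicate 2 among the 4 fits with 1 sample left out and had values between 0.12 and 0.17 in the others. Its value was 0.032 (adjusted p = 0.648) after a correction of each library for the genomic span of genes, and 0.11 (adjusted p = 0.0824) with library size alone. Slirp did not pass without siTbk1 replicate 3 (0.22, adjusted p = 0.0679). Pnpt1, the nuclease of the RNA degradation complex, rose from 52.8 and 47.7 CPM to 62.5 and 67.8 CPM (0.37, SE 0.069, adjusted p = 0.000833). Supv3l1, the helicase of that complex, did not pass, at 41.6 and 42.0 CPM against 39.7 and 36.6 CPM (−0.13, adjusted p = 0.1202, some reads split), but passed with library size alone (−0.18, adjusted p = 0.0426). Mtpap, the poly(A) polymerase of mitochondria, also did not pass, at 30.1 and 31.0 CPM against 32.2 and 32.4 CPM (0.079, adjusted p = 0.337). Of the remaining 5, Trmt10c and Hsd17b10 encode subunits of the RNase P that cuts the 5′ end of tRNAs, and Fastkd1, Fastkd2 and Fastkd3 are FASTK family members. These 5 had adjusted p-values of at least 0.0934 and log2 fold changes between −0.14 and 0.21 with all 4 samples, and of these Trmt10c passed without siScramble replicate 2 (0.24, adjusted p = 0.0151) and after the correction for span (0.24, adjusted p = 0.0182).

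The 5 translation factors differed little. Mtif2, the initiation factor that brings the first tRNA, rose from 21.9 and 19.97 CPM to 23.5 and 25.6 CPM (log2 fold change 0.22, adjusted p = 0.0343). Gfm1, the elongation factor that moves the ribosome along, rose from 92.9 and 90.9 CPM to 104 and 99.9 CPM (0.15, adjusted p = 0.0421). Tufm, which delivers tRNAs to the ribosome, fell from 116 and 110 CPM to 104 and 101 CPM (−0.15, adjusted p = 0.0434). These 3 passed with adjusted p-values close to the threshold. Gfm1 passed in none of the 4 fits with 1 sample left out (0.11 to 0.17), Tufm only without siScramble replicate 3, and Mtif2 failed without siScramble replicate 3 and without siTbk1 replicate 3 (0.16 in both). After the correction for genomic span Gfm1 had a value of 0.059 (adjusted p = 0.393) and Tufm of −0.044 (adjusted p = 0.541). Gfm1 also did not pass with DESeq2, library size alone, no filter or scaling without the mitochondrial mRNAs (0.099 to 0.14), nor Mtif2 with DESeq2 (0.22) or library size alone (0.18). Tsfm, which recharges the Tufm protein, stood at 12.5 and 12.2 CPM against 10.9 and 10.6 CPM (−0.20, adjusted p = 0.0895) and passed with library size alone (−0.24, adjusted p = 0.0412), and the initiation factor Mtif3 had a log2 fold change of −0.076 (adjusted p = 0.481).

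Among the 3 regulators, Ppargc1a, the coactivator PGC-1α that drives mitochondrial biogenesis, rose from 5.996 and 5.65 CPM to 10.2 and 9.75 CPM (log2 fold change 0.77, SE 0.11, adjusted p = 0.00011). It was called in every fit with 1 sample left out, with values between 0.73 and 0.82. Gabpa, the DNA-binding subunit of the factor that recognises the ETS core above, rose from 87.7 and 79.8 CPM to 105 CPM in both siTbk1 samples (0.33, SE 0.060, adjusted p = 0.000818), and by 0.22 after the correction for genomic span (adjusted p = 0.0097). Nrf1, a transcription factor that acts on many respiratory genes of the nucleus, did not pass, at 28.7 and 29.1 CPM against 27.4 and 26.6 CPM (−0.097, adjusted p = 0.253), but passed after the correction for span (−0.21, adjusted p = 0.0210).

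**Figure D4:**
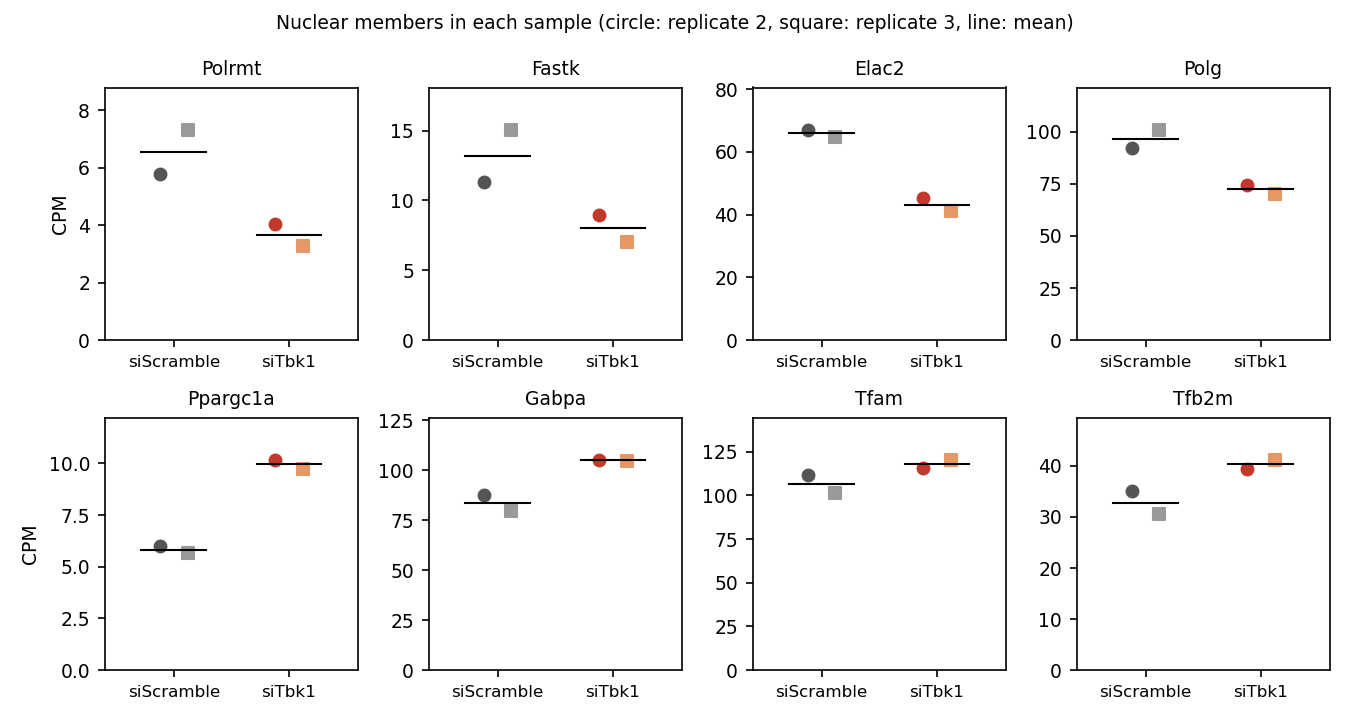
Level in CPM (axes start at 0) of 8 nuclear genes in each siScramble and siTbk1 sample, with circles for replicate 2, squares for replicate 3 and a line at the mean of the 2 samples. Polrmt, Fastk, Elac2 and Polg are lower in both siTbk1 samples, Ppargc1a, Gabpa and Tfb2m are higher in both, and Tfam is higher by less (112 and 101 against 115 and 120 CPM).

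Of 87 other genes of the same pathways, 82 were listed and all of these were tested. In this group 17 passed in the higher direction and 19 in the lower, 1 was called higher and 5 lower, and the median log2 fold change was 0.015. Over all genes 24.4% passed higher and 24.8% lower, and 4.81% were called higher and 6.18% lower, so that the shares of these 82 genes were near or below those of all genes. Of 17 mitochondrial aminoacyl-tRNA synthetases, which charge tRNAs with amino acids, 1 passed higher and 4 passed lower, and 0 were called. Of 11 further translation factors, 3 passed higher and 0 lower, with 0 called. Of 31 further RNA processing, decay and modification genes, 4 passed higher and 10 lower. In that list Nsun3, a tRNA methyltransferase, was called higher (log2 fold change 1.09, at 0.625 and 0.884 CPM against 1.55 and 1.64 CPM). Rpusd3 (−0.69), Gtpbp3 (−0.60) and Nsun4 (−0.59), which modify mitochondrial RNAs, were called lower. Rpusd3 stood at 3.98 and 4.85 CPM against 2.72 and 2.73 CPM, and Gtpbp3 at 5.91 and 5.86 CPM against 4.06 and 3.68 CPM. Nsun4 was just over the fold limit (SE 0.16), at 8.33 and 10.6 CPM against 7.31 and 5.11 CPM. Its log2 ratio was −0.19 between the replicate 2 samples and −1.05 between the replicate 3 samples. Nsun3 and Nsun4 had reads split with other genes.

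Of 12 further genes for mtDNA maintenance and nucleotide supply, 5 passed higher and 2 lower, where 24.4% and 24.8% of all genes did. Atad3a, a membrane ATPase that binds nucleoids, was the only one called, and it fell from 27.6 and 29.4 CPM to 18.7 and 18.4 CPM (log2 fold change −0.62, adjusted p = 4.22e-05). Of 11 further biogenesis regulators, 4 passed higher and 3 lower, and 6.18% of all genes were called lower. Esrra, a nuclear receptor that works with PGC-1α, was the only one called, and it fell from 30.4 and 37.2 CPM to 24.1 and 19.5 CPM (−0.62, adjusted p = 0.000544). In both genes the groups stood apart.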

How the data were processed

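RNA from 2 siScramble and 2 siTbk1 samples of INS-1 832/13 cells was sequenced. The values deposited by the authors are estimated counts for 15172 genes with no scaling across libraries. The submitters' processing notes name STAR 2.6.1d, Partek and the build rn6. The counting tool and its strand setting are not given in the sources used here. Positions are those listed, where stop minus start gives the length of a mitochondrial gene.

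These were rounded, low genes were removed with filterByExpr of edgeR 4.0.16 (minimum count 10), which left 13953 genes and removed 1219, and libraries were scaled with TMM factors (0.982 to 1.02). The groups were compared with edgeR's quasi-likelihood test with treatment as the only factor and Benjamini-Hochberg adjustment over all genes tested. SE is the log2 fold change divided by the square root of F. With these totals, 3 counts correspond to between 0.0628 and 0.0781 CPM, counting error only, and the 2 samples per group limit precision. Replicates of a group differed by more than sampling noise (chi-square per degree of freedom 6.70 and 6.65). Reads were taken as split for a gene whose count was over 0.01 away from an integer in some library.

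The members and lists were chosen with earlier results of these data known. The 13 mitochondrial mRNAs, all called nuclear members, a set of core factors and, among other nuclear members that passed, the 5 strongest in either direction were named by rule. Polg2, Mtif3, Trmt10c, Hsd17b10, Fastkd1, Fastkd2 and Fastkd3 fall outside it and are named to account for every member. Promoters of RefSeq (GRCr8) were searched for 3 motifs on both strands. Alternatives were a replicate block, other scalings, DESeq2 1.42.0, limma-voom (limma 3.58.1), no filter, glmTreat, no fold change limit, a loess correction for genomic span (span 0.5) and leaving out each sample. R 4.3.3 and matplotlib 3.10.9 were used. Sequences of the mitochondrial genome and of proteins were not used here.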

Additional observations from a re-analysis of the deposited data

How the results depend on the processing

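The 13 mitochondrial mRNAs all passed in the higher direction under each alternative except DESeq2 (12 of 13, with Mt-nd6 at an adjusted p of 0.0634), leaving out siTbk1 replicate 3 (12 of 13) and glmTreat, a test against 1.5-fold in which no member passed. Their median was 0.40 with library size alone, 0.44 with scaling factors computed without them, 0.53 with the span correction (with or without the replicate block) and 0.37 to 0.47 with 1 sample left out. The number called higher was 1 with upper quartile normalization, 2 with the span correction (with or without the block), 13 with no fold change limit and 0 to 2 with 1 sample left out. Of the nuclear members, 0 were called higher or lower with glmTreat, and 10 higher and 8 lower with no fold change limit. With 1 sample left out, 1 to 3 were called lower, 5 to 12 passed higher and 5 to 8 passed lower. With library size alone 6 passed higher and the median was 0.017, where the median of all genes was −0.040. Over all genes, glmTreat called 163 higher and 101 lower, no fold change limit gave 3405 and 3459, and leaving out 1 sample gave 552 to 756 and 574 to 1159. Values of 3 genes near 0 changed sign: Polg2 (−0.038 without siTbk1 replicate 3, the lowest with 1 sample left out, where the highest was 0.16), Tefm (−0.025 with library size alone, −0.015 without siScramble replicate 3, −0.0060 without siTbk1 replicate 2, and up to 0.062 with another sample left out) and Hsd17b10 (0.0021 with the span correction, 0.0023 with the block too). The cause of these changes was not tested, beyond the stricter or looser limits that glmTreat and the missing fold limit set. Samples with the same replicate number did not deviate together (correlation over genes 0.013), so the numbers were not taken as pairs. With the replicate block all 13 mRNAs still passed, 699 genes were called higher and 898 lower, and Twnk, Lrpprc, Gfm1 and Tufm no longer passed. The same 4 no longer passed with the span correction, under which Ssbp1, Tfam, Trmt10c and Nrf1 newly passed. Of 644 values of single members under the alternatives, 545 kept their direction and side of the threshold, 78 no longer passed, 15 newly passed and 6 changed sign. The 78 include every member that passed in the main fit, since glmTreat, the test against 1.5-fold, was among the alternatives and no member passed it. Depth limits Mt-nd6, Polrmt, Ppargc1a, Polg2 and Fastkd1 most, at under 11 CPM in every sample.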

Other observations

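A gene listed as a pseudogene, AABR07053741.1 (chromosome 3, 123154669 to 123157085, − strand), has a name that RefSeq on GRCr8 gives as a synonym of Fastkd5, the FASTK family gene that was not found under its own symbol and is known for processing mitochondrial precursors that are not flanked by tRNAs. It was chosen after its values were seen and was counted in none of the lists above. It stood at 22.4 and 21.3 CPM in siScramble samples and at 30.3 and 32.3 CPM in siTbk1 samples, with both siTbk1 samples higher (log2 fold change 0.52, SE 0.072, edgeR quasi-likelihood test, adjusted p = 0.000124). Whether its reads are those of Fastkd5 was not tested.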
